A study of Mus musculus with 14 samples.

Results

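The comparison asks what still differed in the dorsal hippocampus between THY-Tau22 mice given the acetyltransferase activator CSP-TTK21 and wild-type (WT) mice once both had learned a spatial task. Its members are 4 of the 14 RNA-seq libraries of the series, 2 of CSP-TTK21 treated THY-Tau22 mice (TAU MOL) and 2 of saline-injected WT mice (WT VEH), with every gene of the count table. Of 25933 genes listed, 16820 had enough counts to be tested. All mice were males of the C57BL6 strain, 8 months old. Both groups were trained in the Morris water maze for several days, and RNA was taken soon after the last session. THY-Tau22 mice carry a mutated human tau under the neuronal Thy1.2 promoter, and their WT littermates carry none. The 4 remaining groups serve as background: trained THY-Tau22 mice given the carbon nanosphere carrier alone (CSP, TAU VEH, 2 libraries), saline-injected WT mice kept in the home cage (WT VEH_HC, 3), and untrained, untreated WT (3) and THY-Tau22 mice (2) of a basal experiment.

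TAU MOL and WT VEH differ in genotype and in the injected agent. The design has no saline-injected THY-Tau22 group and no WT group given CSP-TTK21, so the part of the transgene and that of the agent cannot be told apart here. The authors had set aside other trained libraries, from mice of a common litter, for a likely difference in genetic background, and these are not analysed here. In bulk tissue, fewer cells of a type and less RNA per cell cannot be told apart.

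Tau is a microtubule-binding protein of axons. When mutated or hyperphosphorylated it detaches and aggregates, and in tauopathies the aggregates appear with synapse loss, reactive astrocytes and activated microglia. CBP and p300 are histone acetyltransferases recruited by CREB and other factors to promoters and enhancers of activity-regulated genes, among them the immediate early genes that neurons switch on within minutes of strong input and that memory formation needs. CSP-TTK21 is an activator of both enzymes (TTK21) bound to glucose-derived carbon nanospheres that carry it into the brain.

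Among the largest changes was one gene of each direction, Thy1 and Mvd, whose difference was called under every alternative processing of the data. Genes of myeloid cells were among those higher in TAU MOL, with Lyz2 and Itgax past a 2-fold difference. Mvd lies on chromosome 8 close to Cyba, which was also lower. The 250 bases before the RefSeq start site of these 4 genes (build GRCm38.p6) are shown because the genes stand for the groups described below, and capitals mark matches to motifs searched on both strands, the GC box GGGCGG and the NF-Y box CCAAT. The Mvd window (chr8:122443423-122443672, minus strand) is 62.8% G and C and holds 1 GC box and 2 NF-Y boxes. The Cyba window (chr8:122432941-122433190, minus strand) is 60.0% G and C and holds 2 GC boxes. The Itgax window (chr7:128129300-128129549, plus strand) holds 1 NF-Y box at 50.0% G and C. In the Lyz2 window (chr10:117282273-117282522, minus strand), which is 41.6% G and C, none of the motifs searched was found.
Mvd: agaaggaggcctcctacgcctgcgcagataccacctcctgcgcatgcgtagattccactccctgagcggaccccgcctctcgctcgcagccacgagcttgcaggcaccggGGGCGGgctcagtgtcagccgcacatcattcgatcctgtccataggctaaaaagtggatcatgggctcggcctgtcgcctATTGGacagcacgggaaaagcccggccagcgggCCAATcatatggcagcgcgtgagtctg
Cyba: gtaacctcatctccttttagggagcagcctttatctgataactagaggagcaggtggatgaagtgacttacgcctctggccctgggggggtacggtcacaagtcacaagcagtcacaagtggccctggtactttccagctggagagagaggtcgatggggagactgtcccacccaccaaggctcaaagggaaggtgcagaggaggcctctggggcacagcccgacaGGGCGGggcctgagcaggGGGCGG
Itgax: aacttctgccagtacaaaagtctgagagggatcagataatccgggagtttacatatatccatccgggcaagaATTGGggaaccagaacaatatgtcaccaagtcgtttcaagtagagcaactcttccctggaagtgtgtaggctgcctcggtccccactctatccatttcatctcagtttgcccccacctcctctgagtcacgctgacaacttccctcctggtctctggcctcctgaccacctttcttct
Lyz2: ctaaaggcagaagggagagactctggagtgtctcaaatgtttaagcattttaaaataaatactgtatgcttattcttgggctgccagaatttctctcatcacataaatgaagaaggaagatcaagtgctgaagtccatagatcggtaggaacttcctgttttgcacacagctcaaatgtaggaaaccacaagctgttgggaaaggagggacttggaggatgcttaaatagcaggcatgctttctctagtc

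Over the genes called in this comparison, the same windows were searched with 2 further motifs, the cAMP response element TGACGTCA through which CREB recruits CBP, and the sterol response element TCACNCCAC. Of 103 genes higher in TAU MOL, 64 had a RefSeq promoter, with 82 windows in all. Of 842 symbols of genes lower in TAU MOL, 586 had one, with 776 windows. The cAMP response element was in 0 of 82 windows of the higher genes (0%) and in 1.42% of those of the lower genes, against 2.44% of the 14356 windows of tested genes and 1.55% of all 32851 windows. The sterol response element was in 1.22% and 1.29% of these windows, against 0.982% of those of tested genes and 1.05% of all. The GC box was in 51.2% of the windows of higher genes and 64.6% of those of lower genes, against 54.4% of those of tested genes and 32.7% of all. The NF-Y box was in 32.9% and 32.2%, against 34.8% and 33.8%. A match is a stretch of letters and not a bound site.

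The 4 libraries held 42615029 and 38528559 counts (TAU MOL) and 42801532 and 39319097 counts (WT VEH), within the range of 24693713 to 52180305 counts over all 14. Values below are CPM, counts scaled to a fixed library size with TMM factors, a level within a gene that is not corrected for gene length. Libraries of the groups also differed in base composition. Across genes, the Spearman correlation between the G and C share of a gene's exons (GC content) and its level in the library relative to the mean of the experiment was -0.40 and -0.47 in the TAU MOL libraries and 0.085 and 0.28 in the WT VEH libraries. It was -0.62 and -0.41 in TAU VEH and 0.41 to 0.45 in WT VEH_HC. Epithelial markers of the choroid plexus, a tissue that borders the dissected hippocampus, summed to 1247 to 1344 CPM in TAU MOL against 2452 to 3514 CPM in WT VEH. Both values stand beside the results that they move with, and their part in those results was not tested except where a corrected value is given.

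In TAU MOL, 947 genes differed from WT VEH at an adjusted p below 0.05 with a log2 fold change past 0.2 either way (edgeR quasi-likelihood test over all 9 learning libraries), which is 5.63% of the genes tested. Of these, 103 were higher in TAU MOL (0.612%) and 844 were lower (5.02%). These shares are the background for the count of called members of every gene list below. Most differences were small. The median log2 fold change was 0.38 among the higher genes and -0.40 among the lower genes, 84 of 103 and 769 of 844 were under 1.5-fold, and 7 and 32 reached 2-fold. The lower genes were rich in G and C, with a median exonic GC content of 57.9%, against 43.3% for the higher genes and 50.0% for all genes tested. The higher genes were also longer, with a median exon length of 8081 bases against 3785 for the lower genes and 3462 for all.

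The calls followed GC content closely. Among the 3356 genes poorest in G and C, 1 of 5 equal bins, 1.76% were called higher and 0.298% lower, and in the richest bin 0.0298% were called higher and 18.7% lower. Over 16780 genes with a known sequence, GC content and log2 fold change had a Spearman correlation of -0.47, given as a description across genes, which are not independent replicates. After the levels of each library were corrected for GC content and gene length, 21 genes were called (0.125%), 5 higher and 16 lower, and 19 of them were among the 947. The sign stayed the same in 103 of 103 higher and 840 of 844 lower genes, with medians of 0.23 and -0.23. The correction removes any true difference that moves with GC content as well.

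**Figure D1:**
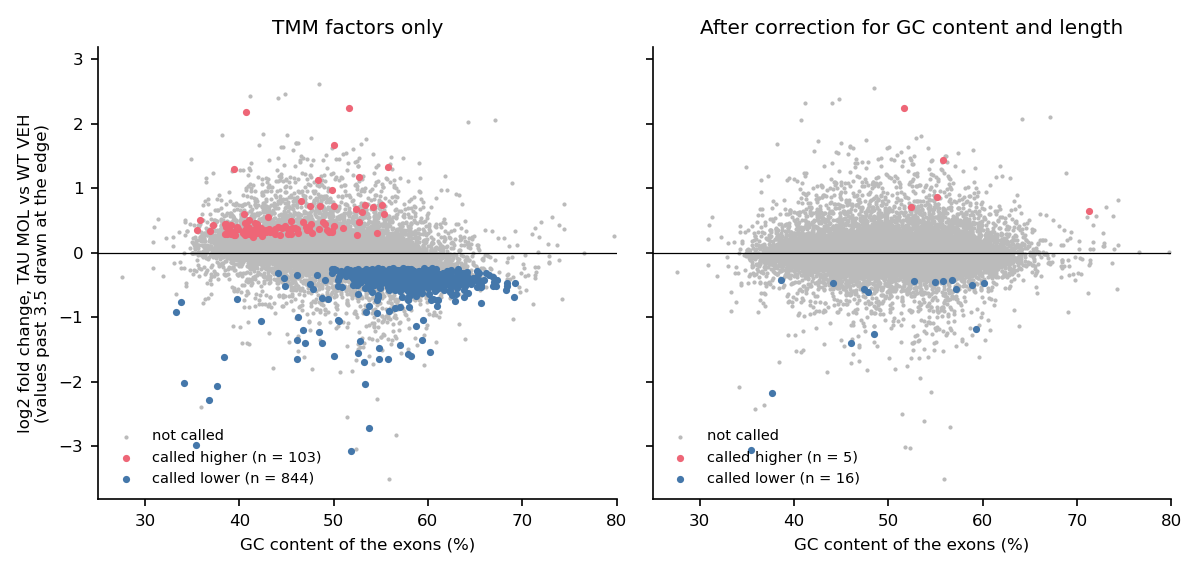
Log2 fold change of each tested gene (TAU MOL against WT VEH, y axis) by the GC content of its exons (x axis, drawn from 25% to 80%, with values past 3.5 at the edge), without and with the correction for GC content and length, called genes in colour. Without the correction the 844 genes called lower lie mostly above 50% GC, and with it 21 genes are called.

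Replication also limits the calls. With either TAU MOL library left out, 2 genes were called, Thy1 and Mvd. Without WT VEH replicate 1 there were 4 (Thy1, Mvd, Sepw1 and Rasal1), and without WT VEH replicate 2 also 4 (Thy1, Mvd, Trpv4 and Col8a2). With the mean level of the choroid plexus markers as a covariate, again only Thy1 and Mvd were called in the fit over all libraries. In no alternative was a gene of the 947 called in the opposite direction.

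Thy1, a membrane glycoprotein of neurons whose regulatory sequences drive the tau transgene, had the clearest difference. It was counted at 1999.8 and 2109 CPM in TAU MOL against 786 and 855 CPM in WT VEH. TAU VEH stood at 1805 and 1998 CPM and WT VEH_HC at 913, 899 and 884 CPM. All 4 THY-Tau22 learning libraries lay above all 5 WT libraries. The log2 fold change of TAU MOL against WT VEH was 1.32 ± 0.07 (SE), edgeR adjusted p = 1.30e-05, with a 95% interval of 1.16 to 1.48. In the basal experiment Thy1 was at 2352 and 1842 CPM in THY-Tau22 and 831, 874 and 795 CPM in WT, a log2 difference of 1.33. The gene spans chr9:43851467-43856662, plus strand (mm9), and a table of counts per gene cannot tell reads of the native gene from reads of Thy1 sequence in the transgene.

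Mouse Mapt, the gene of endogenous tau, was at 783 and 740.0 CPM in TAU MOL against 698 and 729 CPM in WT VEH, a log2 fold change of 0.09 ± 0.07 (SE), edgeR adjusted p = 0.527, with a 95% interval of -0.06 to 0.25. It was not called, and its interval leaves no room for a difference as large as that of Thy1. The human transgene has no row of its own in the mouse table.

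Mvd encodes mevalonate diphosphate decarboxylase of the cholesterol pathway and spans chr8:124957496-124967322, minus strand (mm9). Its level was 9.26 and 8.63 CPM in TAU MOL against 22.8 and 22.96 CPM in WT VEH. It was 9.69 and 10.2 CPM in TAU VEH and 22.7, 22.1 and 19.4 CPM in WT VEH_HC. As for Thy1, the THY-Tau22 and WT libraries did not overlap. The log2 fold change was -1.36 ± 0.10 (SE), edgeR adjusted p = 0.000129 (95% interval -1.57 to -1.14), and -1.18 after the GC and length correction. Untreated basal mice showed 11.9 and 8.96 CPM in THY-Tau22 and 26.3, 23.4 and 26.2 CPM in WT, a log2 difference of -1.28.

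Neighbours of Mvd were looked at after its value was seen. Within 200000 bases of it, 15 genes including Mvd were tested, of which 13 had a log2 fold change below 0 and 5 were called lower. Mvd, which prompted the look, is 1 of the 5. Over all 16820 genes tested, 8325 lay below 0 and 5.02% were called lower. Cyba, a subunit of the phagocyte NADPH oxidase, was at 6.41 and 6.36 CPM in TAU MOL against 9.96 and 9.80 CPM in WT VEH (-0.63 ± 0.11 (SE), edgeR adjusted p = 0.0104). The uncharacterised transcript 9330133O14Rik was at 1.56 and 1.65 CPM and 3.48 and 4.03 CPM (-1.23 ± 0.16 (SE), edgeR adjusted p = 0.00993). The transcription cofactors Cbfa2t3 and Zfpm1 were lower by log2 values of -0.50 and -0.52. The promoters of Mvd and Cyba printed above lie on the same strand. Only Mvd and 9330133O14Rik were called after the GC and length correction. In the basal experiment, whose libraries are separate, 11 of the 15 genes were below 0 and 5 had an unadjusted edgeR p under 0.05 in that direction, namely Mvd, Cyba (-0.45), 9330133O14Rik (-0.50), Rnf166 (-0.38) and Cbfa2t3 (-0.58). Over all 16216 genes of both fits, 8370 lay below 0 there and 2.32% were lower at that p.

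Besides these 2 genes, 12 of moderate or high expression were called by edgeR, by DESeq2 and after the GC and length correction, which makes 14 in all, 3 higher and 11 lower. Genes without an adjusted p in DESeq2 could not enter this set. Higher, next to Thy1, were Gfap, the intermediate filament of astrocytes, and C4b, a complement component. Lower, next to Mvd, were Prkcc, Sepw1, Rabac1, Chchd2, G6pc3, Cox8a, Slc7a8, Lmo1, Dad1 and Bcl11a. Prkcc, the neuronal gamma isoform of protein kinase C, was at 691 and 734 CPM in TAU MOL against 1039 and 1047 CPM in WT VEH (-0.55 ± 0.06 (SE), edgeR adjusted p = 0.00900). Sepw1, a small selenoprotein, was at 627 and 635 CPM and 957 and 1074 CPM (-0.69 ± 0.08 (SE), edgeR adjusted p = 0.00900). The mitochondrial proteins Cox8a and Chchd2 differed by -0.62 and -0.56 on the log2 scale. Lmo1, a LIM-domain transcription regulator, differed by -0.59, and Bcl11a, a zinc finger repressor of projection neurons, by -0.32. For each of the 14, TAU VEH lay on the same side of WT VEH as TAU MOL, but the 2 comparisons share the WT VEH libraries.

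**Figure D2:**
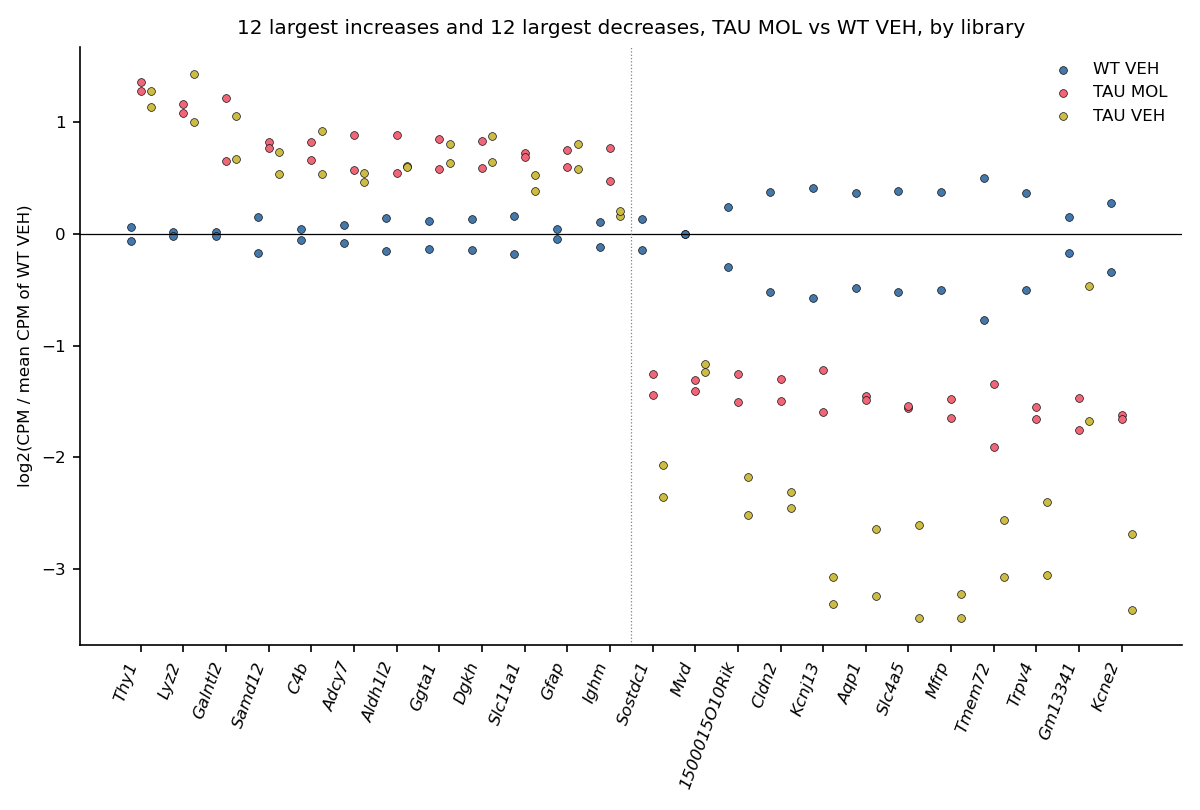
Log2 of each library's CPM over the mean CPM of WT VEH (y axis) for the 12 largest increases and 12 largest decreases among called genes with a mean of at least 100 normalised counts and no overlap between TAU MOL and WT VEH, with TAU VEH beside them. Thy1 has the highest TAU MOL values of the increases, and among the decreases Mvd has both WT VEH libraries at 0 and TAU MOL and TAU VEH close together, while TAU VEH lies below TAU MOL in the 9 choroid plexus genes.

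Several inflammatory genes were above WT in TAU MOL. Of 8 genes that the study used to describe inflammation, 4 were called higher (Gfap, C4b, Irf8 and Itgax) and 0 lower, with a median log2 fold change of 0.58 over the list against 0.00 over all genes tested. The study chose this list on libraries of this series, so it is not independent evidence of direction. Gfap was at 735 and 664 CPM in TAU MOL against 451 and 423 CPM in WT VEH (0.68 ± 0.10 (SE), edgeR adjusted p = 0.00993). C4b was at 137 and 123 CPM and 74.7 and 80.02 CPM (0.75 ± 0.12 (SE), edgeR adjusted p = 0.00996). Both genes were at least 1.5-fold higher with no overlap of libraries. Over all 16820 genes tested, the libraries of the 2 groups did not overlap in 8823 (52.5%). Itgax, the integrin CD11c of activated microglia and dendritic cells, was at 2.18 and 1.62 CPM in TAU MOL against 0.508 and 0.291 CPM in WT VEH (2.23 ± 0.34 (SE), edgeR adjusted p = 0.00993). Irf8, a transcription factor of the myeloid lineage, was at 6.79 and 6.58 CPM and 5.10 and 4.48 CPM (0.48 ± 0.12 (SE), edgeR adjusted p = 0.0444). Of these 4, Gfap, C4b and Itgax were also called after the GC and length correction. DESeq2 called Gfap and C4b and gave Itgax and Irf8 no adjusted p.

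The other 4 genes of the list were not called. Ccl4 was at 0.735 and 0.524 CPM in TAU MOL against 0.266 and 0.238 CPM in WT VEH, a log2 fold change of 1.31 that was not called (95% interval 0.10 to 2.53). Ccl6 and Ccl9 had log2 fold changes of -0.04 (95% interval -0.53 to 0.45) and 0.07 (-0.54 to 0.68). Cd74, the invariant chain of MHC class II, had 0.33 (-0.43 to 1.09). In TAU VEH against the same WT VEH libraries these 4 genes had log2 values of 0.94, 0.63, 0.61 and 0.44. In TAU MOL against TAU VEH, Ccl6 had -0.68 (95% interval -1.15 to -0.20) and Ccl9 -0.55 (-1.14 to 0.05), and 0 genes were called by edgeR in that comparison and 56 by DESeq2. All 3 chemokines lay under 3 CPM in every learning library, where few reads stand behind a value. Itgax, which was called, also lay under 3 CPM in TAU MOL and WT VEH.

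Among 26 genes of disease-associated microglia, the state that microglia take near protein aggregates, 3 were called higher (Itgax, Clec7a and Lyz2) and 0 lower. Clec7a, a phagocytic receptor for beta-glucans, was at 0.868 and 1.10 CPM in TAU MOL against 0.266 and 0.159 CPM in WT VEH (2.18 ± 0.47 (SE), edgeR adjusted p = 0.0223). Lyz2, lysozyme of macrophages and microglia, was at 6.63 and 7.01 CPM and 3.17 and 3.10 CPM (1.12 ± 0.18 (SE), edgeR adjusted p = 0.00996). Few reads stand behind the low levels of Itgax and Clec7a, above all in WT VEH. DESeq2 gave Itgax, Clec7a and Lyz2 no adjusted p, and after the GC and length correction only Itgax was called. Over the list, 19 of 26 members lay above 0 with a median of 0.19, and 11 were higher and 0 lower at an unadjusted p under 0.05. Trem2, a receptor that the full state depends on, had a log2 fold change of -0.06 (95% interval -0.40 to 0.27), Tyrobp, its adaptor, 0.04 (-0.25 to 0.32), and Apoe 0.02 (-0.20 to 0.24). These 3 were looked at after values were seen. Of 17 markers of homeostatic microglia, 0 were higher and 1 was lower (Tmem119, -0.38), with a list median of 0.00 and summed levels of 585 to 657 CPM in TAU MOL against 635 to 648 CPM in WT VEH.

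Of 19 complement genes, 2 were higher (C4b and Itgax, the latter a complement receptor subunit) and 0 lower. C1qa, a subunit of the first component, had a log2 fold change of -0.06 (95% interval -0.28 to 0.16). Of 25 genes of reactive astrocytes, 2 were called higher (Gfap and Ggta1) and 0 lower, with a list median of 0.22. Vim and Serpina3n, 2 other classical members, were not called at 0.35 (95% interval 0.11 to 0.60) and 0.14 (-0.15 to 0.42). Of 18 markers of resting astrocytes, 1 was higher (Slc1a2, the main glutamate transporter, 0.38) and 2 were lower (Gpr37l1, -0.46, and Slc7a10, -0.48). Antigen presentation had 1 of 22 genes lower (Tap2, -0.42). No gene of 19 interferon-response genes was called by edgeR or by DESeq2, which gave 17 of them no adjusted p, although 2 had an unadjusted p under 0.05, both higher.

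The other genes among the 12 largest increases included several enzymes and transporters. Galntl2, a glycosyltransferase, was at 4.18 and 2.82 CPM in TAU MOL against 1.81 and 1.77 CPM in WT VEH (0.97 ± 0.25 (SE), edgeR adjusted p = 0.0421). Dgkh, the eta isoform of diacylglycerol kinase, was at 20.9 and 24.7 CPM and 15.2 and 12.5 CPM (0.72 ± 0.13 (SE), edgeR adjusted p = 0.0136). Slc11a1, a metal transporter of phagosomes, was at 4.85 and 4.74 CPM and 2.59 and 3.28 CPM (0.71 ± 0.17 (SE), edgeR adjusted p = 0.0316). Each of the 3 also had a log2 difference above 0 in the basal experiment, of 0.96, 0.71 and 0.70. Samd12 (0.79), Adcy7, an adenylate cyclase (0.74), Aldh1l2, a mitochondrial folate enzyme (0.73), and Ggta1 (0.72) had smaller basal values, from 0.14 to 0.36. Ighm, the immunoglobulin mu chain, was at 16.8 and 20.5 CPM in TAU MOL, whereas WT VEH had 13.004 and 11.1 CPM and TAU VEH 13.5 and 13.9 CPM, and its basal log2 difference was -0.07. None of the genes named in this paragraph was called after the GC and length correction. Galntl2 also lost its call with a replicate block.

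Of the 12 largest decreases, 9 were genes of the choroid plexus epithelium, which secretes cerebrospinal fluid. Of 25 markers tested, 12 were called lower and 0 higher, with 25 of 25 below 0 and a median log2 fold change of -1.20. After the GC and length correction 1 was called, Sostdc1. DESeq2 called 3 and gave 10 of the 12, including Kcne2, Trpv4, Aqp1 and Sostdc1, no adjusted p, while 20 were called with a replicate block, 22 in a fit of the 4 libraries alone and 24 without a filter. Kcne2, a potassium channel subunit, was at 2.85 and 2.77 CPM in TAU MOL against 10.6 and 6.91 CPM in WT VEH (-1.64 ± 0.33 (SE), edgeR adjusted p = 0.0189). Trpv4, a cation channel gated by osmolarity, was at 6.34 and 5.89 CPM and 24.03 and 13.1 CPM (-1.60 ± 0.26 (SE), edgeR adjusted p = 0.00996). Aqp1, the apical water channel, was at 6.63 and 6.48 CPM and 23.3 and 12.952 CPM (-1.47 ± 0.35 (SE), edgeR adjusted p = 0.0336). The libraries of the groups were separated for these genes, as for 52.5% of all genes tested, but the 2 WT VEH libraries also differed from each other. Sostdc1 was at 8.24 and 7.26 CPM and 21.6 and 17.8 CPM (-1.35 ± 0.24 (SE), edgeR adjusted p = 0.0116). Tmem72, Mfrp, Slc4a5, Kcnj13 and Cldn2 had log2 fold changes of -1.60, -1.56, -1.55, -1.39 and -1.39.

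Ttr, the transthyretin that this epithelium makes in bulk, was named after its value was seen. It was at 630.1 and 582 CPM in TAU MOL, whereas WT VEH had 2118 and 1352 CPM and TAU VEH 171 and 204 CPM, and its log2 fold change of -1.52 was not called (edgeR adjusted p = 0.171). Summed over the list, the levels were 1247 to 1344 CPM in TAU MOL, 2452 to 3514 CPM in WT VEH, 585 to 661 CPM in TAU VEH and 319 to 538 CPM in WT VEH_HC. No marker was at 0 in a TAU MOL or WT VEH library. In the basal experiment the direction was the opposite, with 892 to 2158 CPM in THY-Tau22 and 710 to 845 CPM in WT, a list median of 0.84 and 17 members with an unadjusted p under 0.05, all higher. How far the amount of choroid plexus in each dissection sets these values was not tested. With the mean level of these markers as a covariate, none of the 12 was called, and 6 of them (Kcne2, Tmem72, Mfrp, Slc4a5, Aqp1 and Cldn2) changed sign. The covariate is built from these genes, so it removes their own difference by construction.

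Of 25 genes of cholesterol synthesis, 7 were called lower (28.0%, against 5.02% of all genes) and 0 higher, with a list median of -0.26. Only Mvd was called after the GC and length correction. Srebf2, the transcription factor that drives the pathway, was at 321 and 313 CPM in TAU MOL against 421 and 395 CPM in WT VEH (-0.36 ± 0.06 (SE), edgeR adjusted p = 0.0105). Scap, the sterol sensor that escorts it, had -0.32, and Dhcr7, Tm7sf2 and Mvk were also lower. Fdps was not called, at -0.35. In the basal experiment 3 of 25 members were above 0, with a median of -0.15 and 6 at an unadjusted p under 0.05, all lower. Abca1, which exports cholesterol, was higher in TAU MOL (58.7 and 49.6 CPM against 43.0 and 36.6 CPM, 0.44 ± 0.11 (SE), edgeR adjusted p = 0.0342), and was named after its value was seen.

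Several synaptic genes were lower in TAU MOL, and none of the following calls was kept after the GC and length correction. Of 29 postsynaptic scaffold genes, 12 were lower (41.4%) and 0 higher, with a list median of -0.12 and 10 members above 0. Dlgap3, which links PSD-95 to Shank proteins, was at 474 and 475 CPM in TAU MOL against 717 and 702 CPM in WT VEH (-0.58 ± 0.09 (SE), edgeR adjusted p = 0.00993). Dlg4, which encodes PSD-95, was at 1122 and 1193 CPM and 1599 and 1569 CPM (-0.45 ± 0.07 (SE), edgeR adjusted p = 0.00996). Camk2a, the kinase of synaptic potentiation, was at 6988 and 7577 CPM and 10559.7 and 10101 CPM (-0.50 ± 0.09 (SE), edgeR adjusted p = 0.0105). In each of these genes both TAU MOL libraries lay below both WT VEH libraries. Exonic GC content was 63.9% in Dlgap3, 57.3% in Dlg4 and 52.5% in Camk2a, and the corrected log2 fold changes were -0.23, -0.27 and -0.48. In the basal experiment the list median was 0.03, with 0 of its members at an unadjusted p under 0.05 in either direction.

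On the presynaptic side, 7 of 38 genes of synaptic vesicles and their fusion machinery were lower and 0 higher, with a list median of -0.13. Slc17a7, the vesicular glutamate transporter VGLUT1, was at 2140.2 and 2399.9 CPM in TAU MOL against 3516 and 3739 CPM in WT VEH (-0.68 ± 0.10 (SE), edgeR adjusted p = 0.00993). Syn1, which tethers vesicles, was at 801 and 799 CPM and 1097 and 1166 CPM (-0.50 ± 0.08 (SE), edgeR adjusted p = 0.00993). Bsn, an active-zone scaffold, and Vamp2, the vesicle SNARE, had log2 fold changes of -0.47 and -0.40.

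Of 23 subunits and partners of AMPA, kainate and NMDA receptors, 5 were lower and 0 higher, whereas 12 lay above 0. The 5 were Grik5, Cnih2, Grin1, Cacng8 and Grin2c. Grin1, the obligatory NMDA receptor subunit, was at 531 and 564 CPM in TAU MOL against 691 and 703 CPM in WT VEH (-0.35 ± 0.07 (SE), edgeR adjusted p = 0.0180). Cnih2, an AMPA receptor auxiliary subunit, was at 717 and 720.1 CPM and 1022 and 1019.7 CPM (-0.51 ± 0.08 (SE), edgeR adjusted p = 0.0104). None of 21 metabotropic glutamate and GABA-A receptor genes was called by edgeR, with 6 at an unadjusted p under 0.05, all higher, and DESeq2 called 2, both higher.

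Ion channels and transporters had calls in both directions. Of 82 potassium channel genes, 1 was higher (Kcnma1) and 5 were lower, including Kcnab2 (-0.39), Kcnh3 (-0.51) and the choroid plexus genes Kcne2 and Kcnj13. These shares, 1.22% and 6.10%, were near the 0.612% and 5.02% of all genes tested. Of 29 voltage-gated sodium and calcium channel genes, 1 was higher (Scn1a) and 4 were lower (13.8%). Among the 4 was Cacna1i, a T-type channel at 112 and 105 CPM in TAU MOL against 157 and 148 CPM in WT VEH (-0.50 ± 0.07 (SE), edgeR adjusted p = 0.00993). Of 49 ion pumps and exchangers, 1 was higher (Atp2b4) and 7 were lower (14.3%). Corrected for GC content and length, no gene of these 3 lists was called.

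Mitochondrial respiration was covered by 2 lists. Of 78 nuclear genes of oxidative phosphorylation, 5 were called lower, namely Cox8a, Atp5g2, Sdhc, Cox6a1 and Uqcr11. This share, 6.41%, was near the 5.02% of all genes tested. The list median was -0.13, and 9 members lay above 0, against 8483 of all 16820 genes tested. Cox8a, a subunit of cytochrome c oxidase, was at 374 and 375 CPM in TAU MOL against 577 and 576 CPM in WT VEH (-0.62 ± 0.08 (SE), edgeR adjusted p = 0.00993) and was the one member called after the correction. The list median in the basal experiment was -0.13, with 3 members above 0. All 12 mitochondrially encoded genes lay below 0 with 0 called by edgeR, 3 at an unadjusted p under 0.05 and 1 called by DESeq2. With library size as the only scaling, the median of all genes tested was 0.12 and that of the nuclear list -0.01, since a scaling moves all genes alike.

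Developmental signalling genes were among the lower ones. Of 24 Notch pathway genes, 4 were lower (16.7%, against 5.02% of all genes tested) and 0 higher. Nrarp, a feedback inhibitor of Notch, was at 13.9 and 13.4 CPM in TAU MOL against 21.4 and 22.6 CPM in WT VEH (-0.69 ± 0.11 (SE), edgeR adjusted p = 0.00996). Numbl, Rfng and Hes5 had log2 fold changes of -0.38, -0.44 and -0.55. Of 67 axon guidance genes, 8 were lower (11.9%) and 1 higher. Plxna1, a semaphorin receptor, was at 267 and 262 CPM and 385 and 387 CPM (-0.54 ± 0.07 (SE), edgeR adjusted p = 0.00993), and Ephb3 differed by -0.67. Of 21 circadian clock genes, 3 (14.3%) were lower, Nr1d1 (-0.53), Cry2 (-0.32) and Per1 (-0.47). No gene of these 3 lists was called after the correction.

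Markers of hippocampal fields moved in few cases. Of 12 CA1 markers 2 were lower, Fibcd1 (-0.48) and Nov (-0.52), and of 21 CA2 and CA3 markers 3, Bok (-0.51), Rgs14 (-0.47) and Homer3. These shares were 16.7% and 14.3%, against 5.02% of all genes tested. Of 19 dentate granule cell genes, 2 (10.5%, against 0.612% of all) were higher, Dock10 (0.37) and Ntng1 (0.39), and 0 lower, with a list median of 0.30. Each of these lists had 0 calls after the correction. Ntng1 is also on the list of thalamic and neocortical markers. The dentate median ranged from 0.037 to 0.43 with 1 library left out. Summed dentate levels were 1140 to 1519 CPM in TAU MOL, on both sides of the 1222 to 1247 CPM in WT VEH. None of 20 oligodendrocyte genes was called by edgeR and DESeq2 called 1, and 1 of 20 endothelial genes was lower (Kdr, -0.71). Blood (6 genes) and ependyma (9 genes) had 0 calls by edgeR and by DESeq2, which gave 5 and 8 of them no adjusted p, with 1 and 0 at an unadjusted p under 0.05.

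The remaining lists had 0 to 4 calls in each direction, read against the background of 5.02% lower and 0.612% higher. Ribosomal proteins had 1 of 82 lower (Rplp1, -0.50), proteasome subunits 1 of 37 (Psmb5, -0.43) and lysosomal genes 2 of 31 (Gaa, -0.37, and Psap, -0.24). Ubiquitin-conjugating enzymes had 0 of 31 by edgeR, with 5 at an unadjusted p under 0.05, and 1 by DESeq2. Deubiquitinating enzymes had 3 of 57 higher (5.26%), with 42 of the 57 above 0, including Usp34 (0.38) and Usp9x (0.33), and 2 lower, Usp21 (-0.35) and Usp20 (-0.35). Collagens and laminins had 1 of 51 higher and 4 lower, led by Col8a2 (-1.14). Chaperones had 1 of 30 lower (Xbp1, -0.28), glucocorticoid-responsive genes 1 of 20 higher (Klf9, 0.27) and 1 lower (Per1), interneuron and neuropeptide genes 1 lower each of 19 and 25 (Cck, -0.39), and thalamic and neocortical markers 1 of 19 higher (Ntng1) and 1 lower (Fezf2, -0.45).

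**Figure D3:**
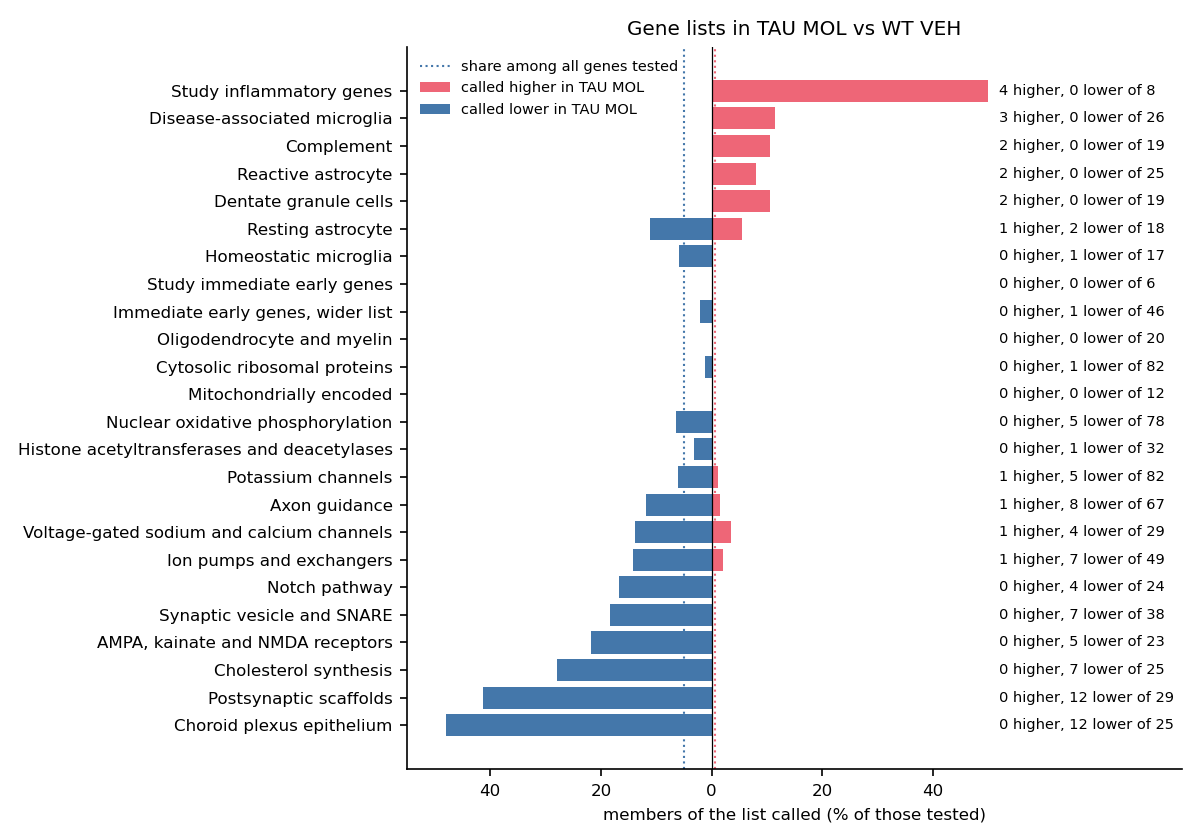
Share of the tested members of each gene list called higher (right) or lower (left) in TAU MOL against WT VEH, in percent, with the numbers at the right and the share among all genes tested as dotted lines. The inflammatory genes of the study and those of disease-associated microglia have 4 of 8 and 3 of 26 higher and 0 lower, whereas choroid plexus, postsynaptic and cholesterol genes have 12 of 25, 12 of 29 and 7 of 25 lower and 0 higher.

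Immediate early genes, which training induces, were examined for a remaining difference from WT. The study picked out Nr4a1, Arc, Egr1, Dusp1, Fos and Junb on libraries of this series, so their values here and below are not independent evidence of direction. None of these 6 was called by edgeR or DESeq2 in TAU MOL against WT VEH. At an unadjusted edgeR p under 0.05 there were 2, both lower (Nr4a1 and Junb). Arc, whose protein organises AMPA receptor traffic, was at 339 and 424 CPM in TAU MOL against 427 and 375 CPM in WT VEH, and the groups overlapped (log2 fold change -0.07, 95% interval -0.29 to 0.15). Fos was at 19.1 and 20.6 CPM and 21.3 and 17.1 CPM (0.05, -0.25 to 0.35). Egr1 was at 281 and 313 CPM and 398 and 285 CPM (-0.20, -0.55 to 0.15). The groups overlapped in all of these 3. Nr4a1, a nuclear receptor, was at 95.9 and 121 CPM and 136 and 123 CPM (-0.26, -0.50 to -0.02), Junb had -0.23 (-0.42 to -0.03) and Dusp1, a phosphatase of MAP kinases, 0.04 (-0.21 to 0.29).

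Against the same WT VEH libraries, TAU VEH had log2 values of -0.77, -0.68, -0.84, -0.16, -0.33 and -0.52 for Nr4a1, Arc, Egr1, Dusp1, Fos and Junb in that order. The TAU VEH levels of Arc were 263 and 236 CPM and those of Egr1 215 and 164 CPM, below both TAU MOL and both WT VEH libraries in each gene. TAU MOL against TAU VEH gave 0.51, 0.61, 0.64, 0.20, 0.38 and 0.29 for the 6 genes, with edgeR adjusted p from 0.213 to 0.875. In untreated basal mice, which had no training, all 6 were lower in THY-Tau22 at an unadjusted p under 0.05, from -1.74 for Arc to -0.67 for Dusp1, and Nr4a1 and Arc were called. In a wider list of 46 immediate early genes, 1 was called lower in TAU MOL against WT VEH (Per1) and 0 higher, with a list median of -0.01. At an unadjusted edgeR p under 0.05, 7 of the 46 were lower and 2 higher. DESeq2 called 4 of them lower and 0 higher. Bdnf and Npas4, named after their values were seen, had 0.10 (95% interval -0.16 to 0.35) and 0.21 (-0.23 to 0.64).

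**Figure D4:**
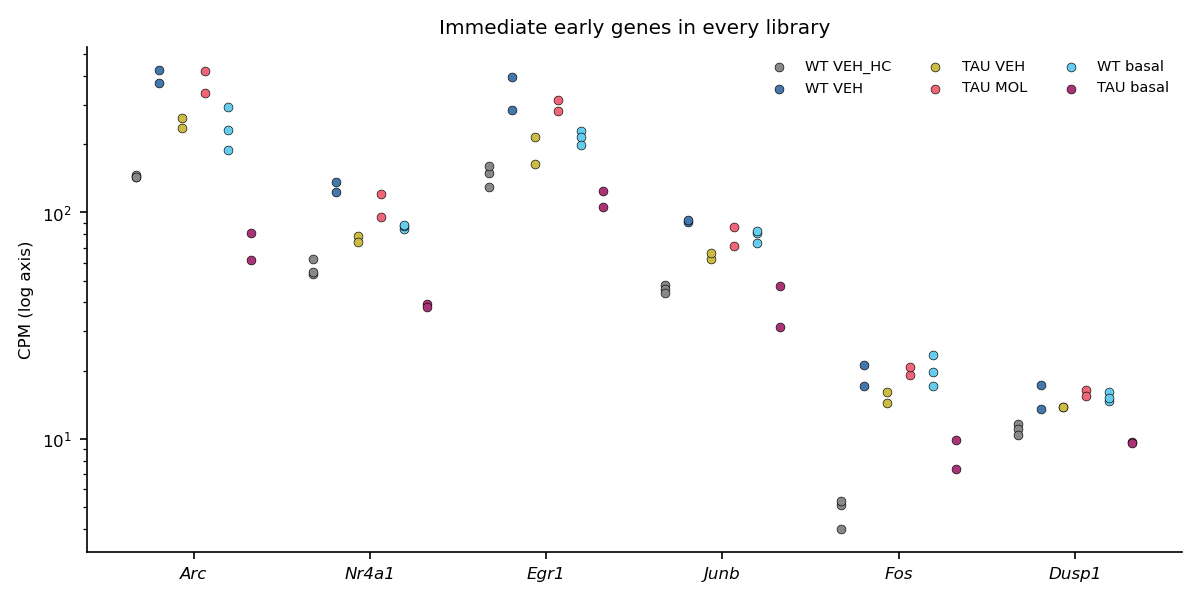
CPM of each library (log axis) for the 6 immediate early genes in the 4 learning groups and the 2 basal groups. TAU MOL libraries overlap those of WT VEH in Arc, Egr1, Dusp1 and Fos, TAU VEH libraries lie lower in Arc and Egr1, and basal THY-Tau22 libraries lie below basal WT.

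Of 5 genes that the study linked to memory and synapses, 2 were called lower in TAU MOL against WT VEH. The study chose them on these samples. Kl (klotho), a co-receptor that the choroid plexus makes in quantity and that is also on the choroid plexus list, was at 62.1 and 56.6 CPM in TAU MOL, whereas WT VEH had 107 and 87.0 CPM and TAU VEH 35.3 and 37.3 CPM. Its log2 fold change against WT VEH was -0.71 ± 0.12 (SE), edgeR adjusted p = 0.0111, and it lost the call after the GC and length correction (-0.76). In basal mice it was higher in THY-Tau22 (log2 difference 0.57). Homer3, a scaffold of postsynaptic glutamate receptors, was at 52.2 and 51.9 CPM in TAU MOL, whereas WT VEH had 61.3 and 69.6 CPM and TAU VEH 73.3 and 77.0 CPM. It was lower than WT VEH in TAU MOL (-0.33 ± 0.08 (SE), edgeR adjusted p = 0.0316), while TAU VEH had a log2 value of 0.20 against WT VEH. Nts (neurotensin) was at 3.18 and 2.82 CPM in TAU MOL against 3.21 and 1.72 CPM in WT VEH, with an interval of -0.29 to 0.85 around 0.28. Grik4 and Sv2b had -0.17 (-0.46 to 0.11) and -0.08 (-0.29 to 0.13), with overlapping libraries.

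The enzymes that CSP-TTK21 addresses were measured as transcripts too. Crebbp (CBP) was at 52.3 and 51.1 CPM in TAU MOL against 62.9 and 55.3 CPM in WT VEH, a log2 fold change of -0.19 (95% interval -0.36 to -0.02) that was not called. Ep300 (p300) had -0.04 (-0.20 to 0.12). Crtc1, a coactivator that brings CBP to CREB, was lower, at 439.5 and 486 CPM and 684 and 638 CPM (-0.51 ± 0.09 (SE), edgeR adjusted p = 0.0104). Creb1 itself had 0.31 (edgeR adjusted p = 0.0835). Of 32 histone acetyltransferases and deacetylases, 1 was called, Hdac5, a class II deacetylase that was lower (231 and 225 CPM against 308 and 291 CPM, -0.39 ± 0.06 (SE), edgeR adjusted p = 0.0103). Of 39 histone methyltransferases and demethylases, 1 was higher (Kdm5a, 0.33) and 4 were lower, among them Setd1b (-0.45) and Mll2 (-0.38). None of these chromatin and CREB genes was called after the correction.

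The trained THY-Tau22 mice without TTK21 (TAU VEH) were compared with the same WT VEH libraries, so values are only set side by side. TAU VEH differed from WT VEH in 2423 genes (14.4%), 608 higher and 1815 lower, against 947 in TAU MOL. After the GC and length correction the counts were 554 and 21. Over the 103 genes called higher in TAU MOL, the median log2 fold change was 0.38 in TAU MOL and 0.39 in TAU VEH, and over the 844 called lower -0.40 and -0.49. The members were chosen on the TAU MOL values. Between TAU MOL and TAU VEH, 0 genes were called by edgeR (0%), 1064 had an unadjusted p under 0.05, and DESeq2 called 56, 33 higher and 23 lower in TAU MOL.

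The basal experiment shares no library with TAU MOL against WT VEH and contrasts genotype alone, in untreated and untrained mice. It called 4 genes (0.0245%), Thy1 higher and Mvd, Nr4a1 and Arc lower in THY-Tau22, while DESeq2 called 40. Of the 103 genes higher in TAU MOL, 102 were tested there. A log2 fold change above 0 was found in 95 of them, against 48.4% of all genes, with a median of 0.26. At an unadjusted p under 0.05, 25 were higher (24.5%, against 2.55% of all genes) and 0 lower. Of the 844 genes lower in TAU MOL, 840 were tested, and 665 lay below 0 with a median of -0.10. At an unadjusted p under 0.05, 28 were lower (3.33%, against 2.32% of all genes) and 18 higher, and without the 12 choroid plexus genes 28 lower and 6 higher.

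These counts rested on one basal library. TAU basal replicate 2 had a Spearman correlation of GC content and relative level of -0.60, on the side of the TAU MOL libraries, and TAU basal replicate 1 one of 0.48. Without replicate 2 the median of the higher genes was 0.0040, with 53 of 102 above 0 and 8 at an unadjusted p under 0.05, and that of the lower genes turned to 0.089. Without replicate 1 the medians were 0.52 and -0.31. After the GC and length correction they were 0.11 and -0.064.

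In all, 53 genes were called in TAU MOL against WT VEH and had an unadjusted p under 0.05 in the same direction in the basal experiment, 25 higher and 28 lower. Of the 53, only Thy1 and Mvd were called in the basal experiment. The 28 are 3.33% of the lower genes tested there, near the 2.32% of all genes. The genes higher in both were led by Itgax (2.23 and 2.12 on the log2 scale in the learning and the basal experiment), Clec7a (2.18 and 2.64), Thy1, Lyz2 (1.12 and 0.85), Galntl2, C4b (0.75 and 0.90), Dgkh, Slc11a1, Gfap (0.68 and 0.65), Irf8 and Slc1a2. Few reads stand behind the learning values of Itgax and Clec7a. Gfap in the basal experiment was at 884 and 1087 CPM in THY-Tau22 and 668, 567 and 643 CPM in WT, and C4b at 91.6 and 113 CPM and 63.6, 43.9 and 57.2 CPM. For both genes every THY-Tau22 library of either experiment lay above every WT library of the same experiment. The genes lower in both included Mvd and its neighbours Cyba, Cbfa2t3 and 9330133O14Rik, Sepw1 (-0.69 and -0.40), Foxo6 (-0.69 and -0.59), Dad1 (-0.49 and -0.34), Per1 (-0.47 and -0.41) and Xbp1 (-0.28 and -0.53). At an unadjusted edgeR p under 0.05, all 8 inflammatory genes of the study list were higher in basal THY-Tau22. At that p, 5 of the 8 were higher in TAU MOL against WT VEH. None of the 8 was among the 4 genes called in the basal experiment. In TAU MOL 4 were called, and Ccl4, Ccl6, Ccl9 and Cd74 were not. The study chose the list on libraries of this series.

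**Figure D5:**
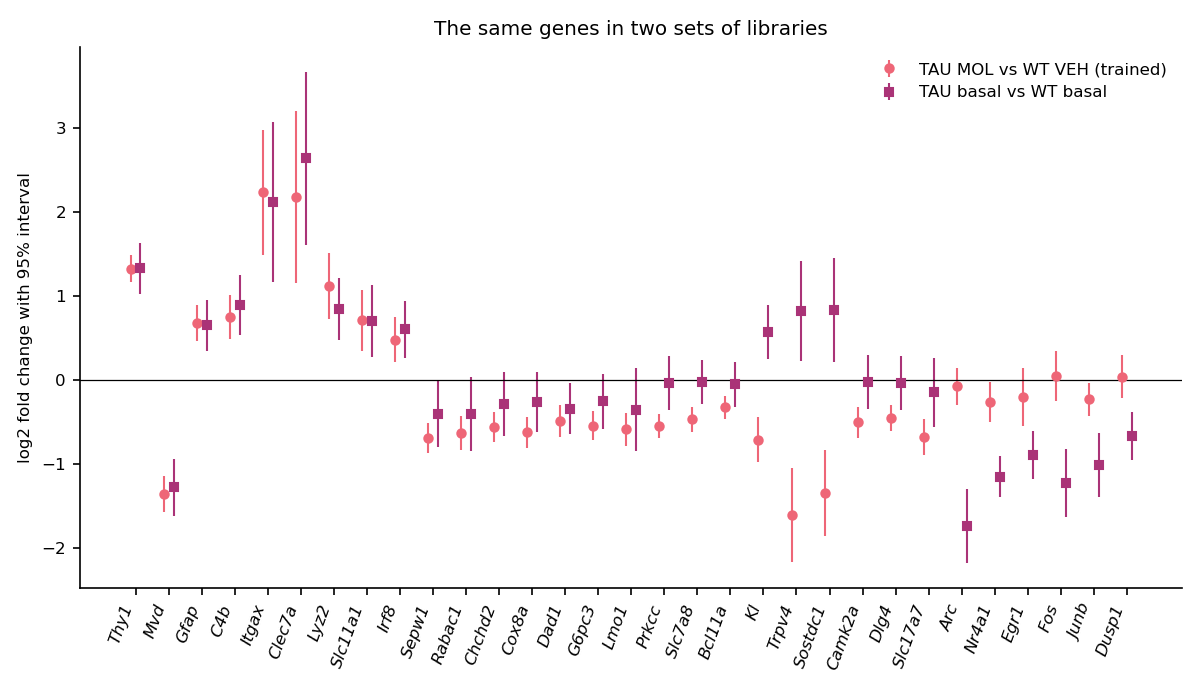
Log2 fold change with 95% interval (y axis) of named genes in TAU MOL against WT VEH (circles) and in TAU basal against WT basal (squares). Thy1 is at 1.32 and 1.33 and Mvd at -1.36 and -1.28, the choroid plexus genes Kl, Trpv4 and Sostdc1 lie on opposite sides of 0, and the immediate early genes lie near 0 in TAU MOL and below 0 in TAU basal.

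The kit does not keep the strand of a read, so counts of a gene that overlaps another annotated gene are uncertain. Among the genes named here this holds for Mfrp, Kcnj13, Bcl11a, Cd74, Egr1, Homer3, Sv2b, Ep300, Tap2, Slc7a10, Slc1a2, Grin1, Kcnab2, Syn1, Bsn, Kdm5a, Scap, Nr1d1, Cry2, Numbl, Hes5, Psmb5, Usp34, Usp9x, Plxna1, Cbfa2t3 and Ttr.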

How the data were processed

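Poly-A RNA of dorsal hippocampus was sequenced without strand information (TruSeq v2, single-end reads). Per the labels and the submitters' processing notes, reads were called with CASAVA 1.8.2, aligned to mm9 with TopHat2 2.0.10 and Bowtie2 2.1.0, and counted per Ensembl gene with HTSeq 0.5.4p3. The authors deposited raw counts per library, used here, and size-factor normalised values (a signal column per library) from DESeq2, used only to check the counts. The deposited tables also hold the authors' fold changes and p-values, which were not used. In the learning table, 138 lines without values were left out.

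Groups followed the labels. All 9 learning libraries were fitted together with edgeR 4.0.16 (R 4.3.3) in a quasi-likelihood model of group, with TMM factors and the default expression filter, and p-values were adjusted by Benjamini-Hochberg over 16820 genes. A called gene had an adjusted p below 0.05 and a log2 fold change past 0.2 in either direction. A separate fit covered the 5 basal libraries (16324 genes). Plain p-values given for basal contrasts come from that edgeR fit. Alternatives were DESeq2 1.42.0, other scalings and filters, a loess correction for exonic GC content and length in each library, a choroid plexus covariate, a replicate block and leaving out each library. The scripts were tested on simulated counts.

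Named genes were the 12 largest called changes in each direction with a mean of at least 100 normalised counts, genes called by the 3 fits (edgeR, DESeq2, GC and length corrected), members of the study's lists and up to 4 called members of every other list, out of 46 lists in all. Genes outside this rule are marked in the text. Members and lists were chosen with earlier results of these data known. Gene positions come from the mm9 annotation, and promoters from RefSeq. The labels give replicate numbers without saying that each is a separate animal, so p-values measure the spread between libraries. Libraries of a group differed by more than counting noise. Precision is limited by 2 libraries per group, and for genes of a few CPM or less also by the few reads behind each value. Some genes counted in the lists are not reported here by name.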

Additional observations from a re-analysis of the deposited data

How the results depend on the processing

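The 947 calls (103 higher, 844 lower) became 21 (5, 16) after the GC and length correction, 2 (1, 1) with the choroid plexus covariate, 1590 (347, 1243) without a filter, 1490 (341, 1149) in a fit of the 4 libraries alone and 1331 (271, 1060) in DESeq2, which gave 7826 genes no adjusted p. DESeq2 size factors gave 842, a mean count of at least 10 gave 977 and no fold limit gave 947. Scaling by library size alone gave 1083 (757, 326), which moves the share called higher from 10.9% to 69.9% and the median over all genes from 0.00 to 0.12 (log2). Leaving out 1 library gave 2 to 1379 calls, 1 to 234 higher and 1 to 1145 lower. Both 1-library arms were assumed to vary like the other groups. The count fell to 2 to 4 without a TAU MOL or WT VEH library, and stood at 641 without either TAU VEH library, 995, 1379 and 1171 without WT VEH_HC replicates 1, 2 and 3. Apart from these constructions, which use fewer libraries or other genes, the cause was not tested.

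The labels do not say that libraries of the same replicate number are paired. The deviations of same-numbered libraries correlated at 0.037. With 2 libraries per group this value is the same for both numbers, so it cannot decide whether libraries were paired. With a replicate block the calls were 1321 (230, 1091), of which 935 were shared with the 947, and with the block and the GC and length correction 176 (13, 163).

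The choroid plexus covariate turned the sign of Kcne2 (0.055), Tmem72 (0.66), Mfrp (0.43), Slc4a5 (0.25), Aqp1 (0.37) and Cldn2 (0.32). In the basal experiment the median of the genes called higher, 0.26, was 0.11 after the GC and length correction and 0.0040 to 0.52 with 1 library left out. That of the genes called lower, -0.10, was -0.064 after the correction and -0.31 to 0.089 with 1 library left out, with the sign turned only without TAU basal replicate 2. The DESeq2 count for TAU MOL against TAU VEH (56, against 0 by edgeR) was chosen after seeing the data. Thy1 and Mvd were called in 11 of 11 settings and in every fit with a library left out.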

Other observations

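The GC and length correction called 7 genes that are not among the 14 of moderate or high expression called by 3 fits. Itgax, Sostdc1 and 9330133O14Rik are described above. Gm11408 and Gm11410, predicted genes named after their values were seen, had log2 fold changes of -2.98 and -2.06 before the correction and -3.05 and -2.17 after it. Of these 2, Gm11410 was tested in the basal experiment, where its log2 fold change was -0.01. The other two, mt-Co2 and a second locus annotated as Purb, were called only after the correction, with edgeR adjusted p of 0.0357 and 0.0391. The mitochondrially encoded mt-Co2 went from -0.34 to -0.43, and the Purb locus, 71.3% G and C, from 0.38 to 0.64.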
